A study of Mus musculus with 10 samples.

Results

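The EGR zinc finger factors, the NAB corepressors that bind them and the NR4A orphan nuclear receptors were followed by symbol in the table of expression values. All 9 genes named *Egr1*, *Egr2*, *Egr3*, *Egr4*, *Nab1*, *Nab2*, *Nr4a1*, *Nr4a2* and *Nr4a3* were found among 26888 genes. RNA-seq was carried out on OP9 cells, a stromal line from the calvaria of newborn op/op mice, labelled with the strain (C57BL/6xC3H)F2-op/op. The comparison asked how the transcriptome of these cells differs between flat culture submersed in medium and reaggregates kept at the liquid-gas interface. Of the 10 libraries, 6 were reaggregates cultured for 48 h, among which replicates 2, 4 and 6 received IL-3, given as 200 µg/µl, and replicates 1, 3 and 5 did not. The other 4 were flat cultures, of which 2 and 4 carry the label of the de Bruijn lab and 1 and 3 carry none. No flat culture is labelled with IL-3, and the time for which they were cultured is not given. The Methods name the Medvinsky and de Bruijn groups as sources of the flat cultures, without saying which library came from the former. According to the Methods, trypsin was used to make single cells for reaggregation, and reaggregates were dissociated with collagenase and dispase before RNA extraction, a step not stated for flat cultures, so culture form and dissociation cannot be told apart. No source of cells is labelled for the reaggregates. The flat cultures thus came from more than 1 source and the Methods also mention passage number, but whether libraries of the same source or IL-3 condition were separate cultures is not stated, so p-values measure the spread between these libraries, which may in part be technical.

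EGR and NR4A genes are immediate early genes, whose transcription can start within minutes of a signal without new protein synthesis. EGR genes are classically induced by growth factors, serum and mechanical stimuli through MAP kinases and serum response factor, and NR4A genes also through cyclic AMP, calcium and CREB. NAB proteins bind EGR proteins and repress their target genes, and *Nab2* is itself a target of EGR proteins, which forms a negative feedback loop.

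Values are RPM, the reads of a gene per 1e6 reads on all genes of its library, as scaled by the authors. Libraries held from 7.35 to 9.43 M reads on genes (M, 1e6 reads), estimated from the value of 1 read, and 3 reads, taken as the floor, corresponded to between 0.318 and 0.408 RPM, which covers counting error only. Stromal genes were abundant in every library. The 9 stromal markers, of which *Col1a2* was the most abundant and *Thy1* lay below 0.5 RPM, summed to between 14793 and 22124 RPM in reaggregates and between 5939 and 12306 RPM in flat cultures. Of the 8 tested, 5 were called higher and 1 lower in reaggregates, where 7.32% of all genes tested were higher and 6.53% lower, and with the consecutive reaggregates averaged 2 were called higher and none lower. Endothelial markers summed to at most 1.23 RPM in any library, with *Cdh5* under 3 reads in every library. The 7 haematopoietic markers summed to between 3.34 and 10.8 RPM, with *Cd68* the most abundant, and *Ptprc* and *Gata1* were listed at 0 in every library. The part of the stromal markers in the differences described here was not tested.

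Flat culture 3 stood apart from the other flat cultures, in immediate early genes and beyond them, and its values are given separately. Of 2986 genes for which the other 3 flat cultures lay below every reaggregate, flat culture 3 lay within the reaggregates for 1491 and above all of them for 175. A library left out of such a choice tends to lie higher, and the same counts were 177 and 42 of 1539 genes for flat culture 1, 171 and 44 of 1535 for flat culture 2, and 47 and 3 of 1370 for flat culture 4. Its *Col1a1* was at 4440 RPM, against 2010, 1440 and 698 RPM in flat cultures 1, 2 and 4, and its *Col1a2* at 6340 RPM, against 3310, 2070 and 1190 RPM. Of the other tested stromal markers, flat culture 3 was the highest flat culture for *Pdgfra*, *Kitl* and *Mcam*. It was not the highest for *Pdgfrb*, *Vcam1* and *Cxcl12*. Its *Cxcl12* was at 662 RPM, against 125, 4560 and 3990 RPM in flat cultures 1, 2 and 4. Its 28 immediate early genes of other families summed to 4866 RPM, against 1886, 2853 and 3200 RPM in flat cultures 1, 2 and 4 and between 3452 and 4453 RPM in reaggregates. This sum mixes directions, as 7 of the 28 were called higher and 3 lower in reaggregates. Among the latter, *Cyr61* was at 807 RPM in flat culture 3, against 193 to 238 RPM in reaggregates, and *Sgk1* at 402 RPM, against 99.1 to 163 RPM. The place of flat culture 3 above the reaggregates in the sum therefore rests in part on these genes. The cause was not tested.

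The limma test was run on log2(RPM + 0.5) for the 16933 genes that exceeded 0.5 RPM in 1 library or more. A call needed a change of 2-fold or more and a p of 0.05 or less after Benjamini-Hochberg adjustment. On this log scale the change of a gene with low RPM is understated. All 9 members passed this filter, *Egr4* only through flat culture 2 and *Nr4a3* only through the reaggregates. Between the 6 reaggregates and the 4 flat cultures, 6 of the 9 were up-regulated (*Nr4a3*, *Nr4a1*, *Egr3*, *Nr4a2*, *Egr2* and *Nab2*), where 7.32% of all genes tested were. Without the filter, which *Nr4a3* passed only through the group where it was high, the number was also 6 of the 9, where 3.71% of 25088 genes were up-regulated and 3.79% down-regulated. None of the 9 was down-regulated, where 6.53% of all genes were. With the consecutive reaggregates averaged, which were alike in pairs, 5 of the 9 were up-regulated, without *Egr2*, where 1.84% of all genes were (312 in place of 1239). In these bulk libraries, fewer cells that express a gene and less of its RNA per cell cannot be told apart. Flat culture 3 was set apart for its high immediate early values, so values without it are a description and no separate test. Without it *Egr1* was called as well, 7 of 9, where 12.5% of all genes tested were up-regulated (2121 in place of 1239). Without flat culture 4 the number over all genes was 766. In 5 of the 9 (*Egr3*, *Nab2*, *Nr4a1*, *Nr4a2* and *Nr4a3*) every reaggregate lay above every flat culture, which held for 7.80% of all genes. With flat culture 3 set aside this held for 7 of the 9, with *Egr1* and *Egr2* added, and for 17.6% of all genes.

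**Figure D1:**
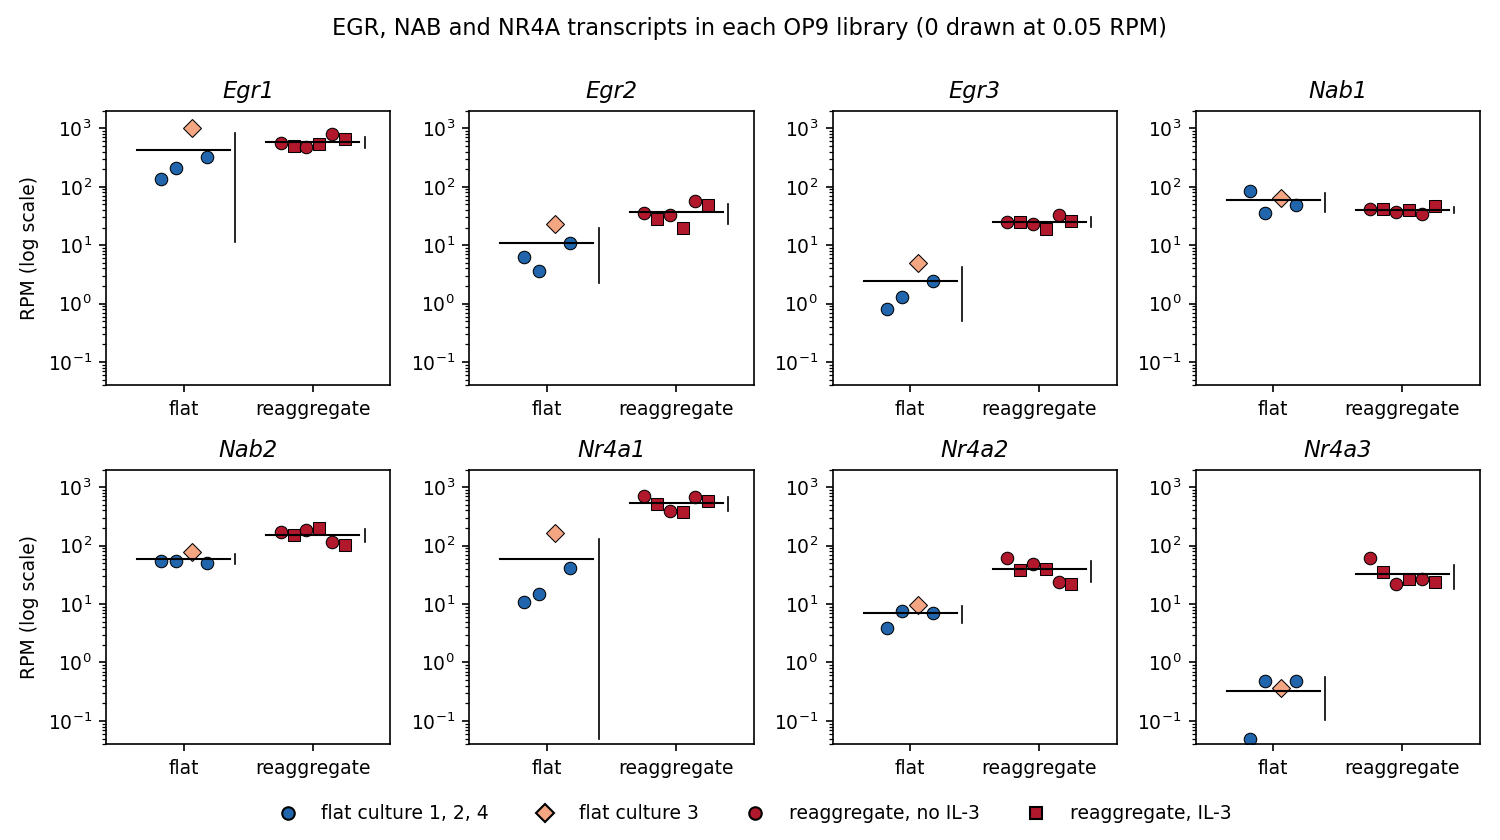
RPM on a log axis for 8 of the 9 genes in each library, with the group mean as a horizontal line, the SD as a vertical bar that ends at the lower edge where it reaches below 0.05 RPM, and flat culture 3 as a diamond. In *Egr1* flat culture 3, at 1030 RPM, lies above all 6 reaggregates, and in *Nr4a3* all flat cultures lie at or below 0.486 RPM.

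*Egr1* encodes the zinc finger factor for which the family is named and lies at chr18:35020861-35024638 in NCBI37/mm9. Its level in reaggregates was between 475 and 802 RPM with a median of 545 RPM, and in flat cultures 1 to 4 it was 136, 206, 1030 and 320 RPM. Flat culture 3 therefore exceeded every reaggregate, at 4.67 times the mean of the other 3 flat cultures, while those 3 lay below every reaggregate. The groups differed by less than the spread between libraries when all flat cultures were used, with 590 ± 123 RPM (SD, n = 6) against 423 ± 412 RPM (SD, n = 4). The log2 fold change was 0.90 (SE 0.44, adjusted p = 0.140 with limma), and the exact two-sided permutation p was 0.124. Without flat culture 3 the log2 fold change was 1.48 (SE 0.26), whereas it was 0.51 without flat culture 1 and 0.71 without flat culture 2, and *Egr1* was not called in either. Against flat cultures 2 and 4, chosen by their label but also without flat culture 3, it was 1.17 (adjusted p = 0.00260 with limma), and 7 of the 9 genes were up-regulated, the 6 named above and *Egr1*, where 15.2% of all genes were and 10.5% were down-regulated. Against flat cultures 1 and 3 the log2 fold change was 0.63 and *Egr1* was not called. Over all alternatives its adjusted p was between 0.00150 and 0.495.

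*Egr2*, also known as *Krox20* and required for hindbrain patterning and myelination, lies at chr10:66998223-67004936. Its level was between 19.6 and 56.8 RPM with a median of 34.1 RPM in reaggregates, and 6.22, 3.58, 23.1 and 10.8 RPM in flat cultures 1 to 4. Only flat culture 3 overlapped with the reaggregates, where it exceeded reaggregate 4 alone. *Egr2* was up-regulated by a log2 fold change of 1.94 (SE 0.44, adjusted p = 0.00853 with limma), with an exact permutation p of 0.00952. This call was lost in 4 settings, given with the log2 fold change and the adjusted p with limma. They were flat cultures 1 and 3 alone (1.49, adjusted p = 0.0709) and the consecutive reaggregates averaged (1.94, adjusted p = 0.0807). The others were the reaggregates without IL-3 (2.14, adjusted p = 0.0595) or with IL-3 alone (1.73, adjusted p = 0.114). Over all alternatives its adjusted p was between 0.000809 and 0.114.

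*Egr3*, a close relative known for roles in muscle spindles and lymphocytes, lies at chr14:70477252-70479964. In reaggregates it was between 19.1 and 33.1 RPM with a median of 25.3 RPM, and in flat cultures 1 to 4 it was 0.806, 1.31, 5.03 and 2.43 RPM. The groups did not overlap, and flat culture 3 was again the highest of the flat cultures, at 3.32 times the mean of the others. The log2 fold change was 3.36 (SE 0.35, adjusted p = 0.000138 with limma) with all flat cultures and 3.75 (SE 0.26) without flat culture 3. The exact permutation p of 0.00476 was the smallest that the 210 splits into 6 and 4 libraries can give, as it was for each of the 5 genes without overlap. Reaggregates 1 and 2, 3 and 4, and 5 and 6 were more alike than other reaggregates (Pearson's r across genes of 0.994, 0.994 and 0.995, against 0.961 to 0.980), so that the 6 libraries may not be independent. With these pairs averaged, 35 splits remain, and the exact permutation p was 0.0286, the smallest they can give, for *Egr3*, *Nab2*, *Nr4a2* and *Nr4a3*, and 0.0571 for *Egr2* and *Nr4a1*.

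*Egr4*, at chr6:85461125-85463583, was listed at 0 in all 6 reaggregates and in flat cultures 1 and 3. About 7 reads gave 0.835 RPM in flat culture 2, and about 4 reads gave 0.486 RPM in flat culture 4. Both of these are the cultures labelled with the de Bruijn lab, and the mean of all 4 flat cultures lay below the floor. In all, 11 reads in 33.7 M stood in flat cultures, with a 95% Poisson interval of 5.49 to 19.7 reads that covers counting error only, against 0 in 50.8 M in reaggregates. *Egr4* was not called in the comparison of all libraries (adjusted p = 0.114 with limma, and 0.162 without the filter on low values). Against flat cultures 2 and 4 alone, which hold all of its reads, its log2 fold change was −1.2 and it was called lower. Because it passed the filter through a flat culture alone and had no spread in reaggregates, its values are a description and that call supports nothing.

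Levels of different genes were compared as RPM per kb of the longest annotated transcript. Within the EGR family, *Egr1* made up 95.5 ± 1.16% (SD, n = 4) of the summed RPM per kb in flat cultures and 86.2 ± 1.65% (SD, n = 6) in reaggregates. The share of *Egr3* was 1.29 ± 0.227% in flat cultures and 8.22 ± 0.953% in reaggregates, and that of *Egr2* was 2.97 ± 1.22% and 5.54 ± 1.15%. In flat culture 3, where *Egr1* was highest, the log2 ratio of *Egr3* to *Egr1* RPM was −7.54, the lowest of all libraries, against −6.71, −6.83 and −6.77 in flat cultures 1, 2 and 4. In reaggregates this ratio was between −4.76 and −4.30, so that flat culture 3 exceeded the reaggregates in its *Egr1* level and lay farthest from them in this ratio.

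*Nab1* and *Nab2* encode corepressors that bind EGR proteins, of which NAB2 recruits the NuRD complex. *Nab2*, at chr10:127097974-127105624, was between 103 and 204 RPM in reaggregates with a median of 160 RPM, and at 55.4, 55.2, 77.2 and 51.2 RPM in flat cultures 1 to 4. The groups did not overlap, and apart from flat culture 3 the flat cultures lay close together. *Nab2* was up-regulated by a log2 fold change of 1.34 (SE 0.21, adjusted p = 0.00130 with limma), and by 1.47 without flat culture 3. The library kit did not mark strand, and *Nab2* shares 1050 exon bases with the antisense gene *Gm16229*, whose reads cannot be told apart from its own by strand. The level of *Gm16229* was 5.42 ± 0.915 RPM (SD, n = 4) in flat cultures and 13.3 ± 3.43 RPM (SD, n = 6) in reaggregates, with a log2 fold change of 1.19 (adjusted p = 0.00364 with limma). The neighbor *Stat6*, which shares 40 exon bases with *Nab2*, had a log2 fold change of 0.14 (adjusted p = 0.433 with limma), and *Tmem194*, which shares 151, one of −0.83 (adjusted p = 0.0173 with limma).

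*Nab1*, at chr1:52514138-52557523, was between 34.6 and 47.5 RPM in reaggregates with a median of 40.5 RPM, and at 84.6, 35.2, 65.5 and 48.9 RPM in flat cultures 1 to 4. The groups overlapped, and flat cultures 1 and 3 were higher than flat cultures 2 and 4. The log2 fold change of −0.46 (SE 0.22, adjusted p = 0.123 with limma) did not pass either threshold. It depended on the flat cultures used, with −0.26 without flat culture 1, −0.68 without flat culture 2 (adjusted p = 0.0238 with limma), −0.88 against flat cultures 1 and 3 (adjusted p = 0.00706 with limma) and −0.04 against flat cultures 2 and 4. Over all alternatives its adjusted p was between 0.00706 and 0.843, and no change reached 2-fold. Per kb, *Nab2* made up 61.2 ± 8.63% (SD, n = 4) of the summed level of the NAB genes in flat cultures and 84.4 ± 4.42% (SD, n = 6) in reaggregates. In every reaggregate this share, at least 76.5%, was above that of any flat culture, at most 70.2%.

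*Nr4a1*, also called *Nur77*, is the founding receptor of its family and lies at chr15:101097277-101105223. Its level was between 371 and 695 RPM in reaggregates with a median of 545 RPM, and 10.9, 14.8, 166 and 40.8 RPM in flat cultures 1 to 4. No flat culture reached the reaggregates, although flat culture 3 was 7.49 times the mean of the other flat cultures. The log2 fold change was 3.98 (SE 0.60, adjusted p = 0.00110 with limma) with all flat cultures and 4.76 (SE 0.37) without flat culture 3, that is 15.8-fold and 27.1-fold. Relative to *Egr1* RPM, *Nr4a1* had a log2 ratio between −0.51 and 0.31 in reaggregates and between −3.75 and −2.63 in flat cultures, and flat culture 3 held the highest of the latter values.

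*Nr4a2*, also called *Nurr1* and known for its role in dopaminergic neurons, lies at chr2:56959241-56976414. In reaggregates it was between 21.8 and 62.7 RPM with a median of 39.2 RPM, and in flat cultures 1 to 4 it was 3.91, 7.52, 9.46 and 7.05 RPM. Flat culture 3 was the highest flat culture here too, but only at 1.54 times the mean of the others. *Nr4a2* was up-regulated by a log2 fold change of 2.37 (SE 0.32, adjusted p = 0.000595 with limma), and by 2.53 without flat culture 3.

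*Nr4a3*, also called *Nor1*, lies at chr4:48058025-48099319 and showed the largest fold change of the 9 genes with all flat cultures and without flat culture 3. Its level was between 22.4 and 60.4 RPM in reaggregates with a median of 26.9 RPM, and 0, 0.477, 0.359 and 0.486 RPM in flat cultures 1 to 4, which correspond to 0, 4, 3 and 4 reads. Flat culture 3 was at 1.12 times the mean of the other flat cultures. Because these values rest on 4 reads or fewer, this ratio is uncertain and was not compared with those of *Egr1* and *Nr4a1*. The log2 fold change was 5.28 (SE 0.31, adjusted p = 7.84e-06 with limma, and 0.000141 without the filter on low values), and it was 6.44 with a pseudocount of 0.1 and 4.59 with a pseudocount of 1. From 1621 reads in reaggregates and 11 in flat cultures, scaled by depth, the ratio was 97.7, with a 95% Poisson interval of the flat reads giving 54.6 to 196, which covers counting error only.

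**Figure D2:**
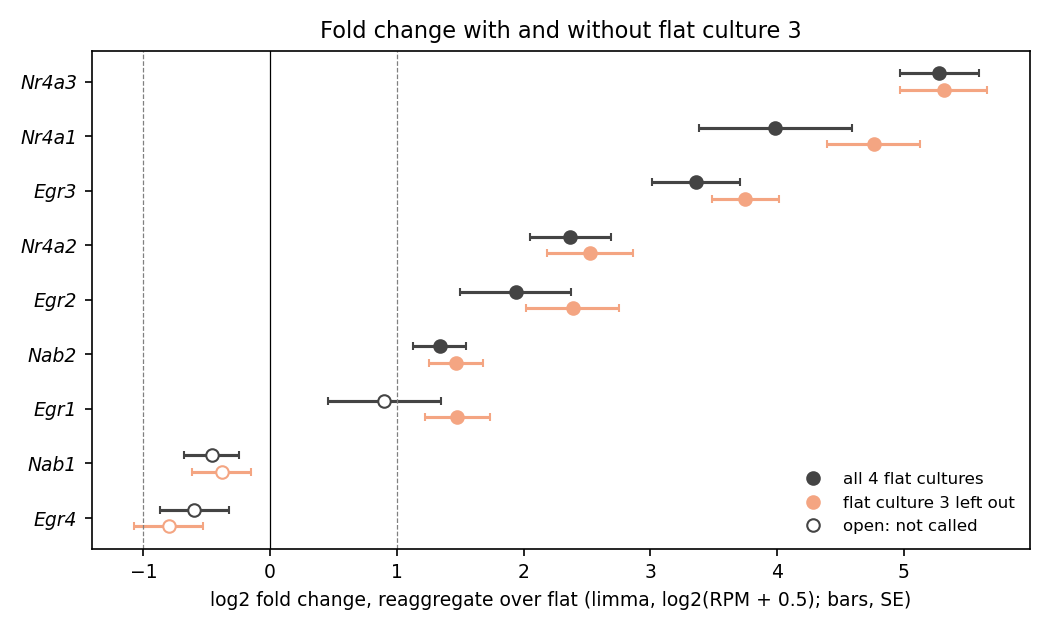
Log2 fold change of reaggregates over flat cultures with its SE for the 9 genes, with all 4 flat cultures and with flat culture 3 left out; filled points were called and dashed lines mark a fold change of 2. Without flat culture 3, *Egr1* moves from 0.90 to 1.48 and *Nr4a1* from 3.98 to 4.76. *Nr4a3* goes from 5.28 to 5.31, but its flat values rest on 4 reads or fewer and lie below the pseudocount of 0.5 RPM. Its shift is therefore not compared with those of the other genes.

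Per kb, *Nr4a1* and *Egr1* were the most abundant of the 9 genes in reaggregates, at 218 ± 56.5 and 190 ± 39.7 RPM per kb (SD, n = 6), which did not differ beyond their spread. They were followed by *Nab2* at 59.8 ± 15.3 RPM per kb and *Egr3* at 17.9 ± 3.21 RPM per kb. *Egr2* at 12.5 ± 4.60, *Nr4a2* at 11.0 ± 4.30 and *Nab1* at 10.4 ± 1.16 RPM per kb lay within their spread of each other, and *Nr4a3* was at 5.71 ± 2.50 RPM per kb. In flat cultures the order was led by *Egr1* at 136 ± 133 RPM per kb (SD, n = 4), with *Nr4a1* at 23.5 ± 29.6, *Nab2* at 23.1 ± 4.57 and *Nab1* at 15.1 ± 5.51 RPM per kb within their spread of each other. The mean of *Nr4a1* rests on flat culture 3, at 67.1 RPM per kb, whereas in flat cultures 1, 2 and 4 it was at 4.41, 5.98 and 16.5 RPM per kb, each below *Nab2* at 21.5, 21.4 and 19.8 RPM per kb. *Egr2* at 3.68 ± 2.92, *Nr4a2* at 1.96 ± 0.645 and *Egr3* at 1.69 ± 1.33 RPM per kb followed, also within their spread, and *Egr4* was at 0.154 ± 0.190 RPM per kb. In reaggregates *Egr4* was the lowest, listed at 0. In flat cultures *Egr4* and *Nr4a3*, the latter at 0.0578 ± 0.0398 RPM per kb, were the lowest. Each of these 2 rests on 11 reads there, and they lay within their spread of each other.

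Within the reaggregates, cultures with IL-3 were compared with those without it. None of the 9 genes was called, where 0% of all genes were. With limma, the unadjusted p was at most 0.05 for 68 genes of 16933, and for 564 with the consecutive reaggregates as a block. In each of the 3 consecutive pairs, *Egr2*, *Egr3*, *Nr4a1* and *Nr4a2* had lower and *Nab1* higher values with IL-3, where 8.78% of all genes were lower and 12.7% higher in each pair. The log2 differences were −0.42 (SE 0.37, and 0.11 with the pairs as a block) for *Egr2*, −0.21 (SE 0.20 and 0.092) for *Egr3*, −0.26 (SE 0.28 and 0.073) for *Nr4a1*, −0.36 (SE 0.41 and 0.12) for *Nr4a2* and 0.19 (SE 0.13 and 0.096) for *Nab1*. None of them passed the test (adjusted p = 1 with limma, and 0.982 with the consecutive reaggregates as a block).

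Within the flat cultures, the 2 labelled with the de Bruijn lab were compared with the 2 without a labelled source. None of the 9 genes was called in either direction, where 5.70% of all genes were. *Egr4* had a log2 difference of 1.2 and *Nab1* one of −0.84 (adjusted p = 0.188 with limma), against a median of −0.17 over all genes. Without flat culture 3 the log2 difference changed sign for *Egr1*, from −0.54 to 0.91, and for *Nr4a1*, from −0.79 to 1.14, and *Egr2* moved from −0.89 to 0.01. *Egr3* moved from −0.22 to 0.82, but its sign also changed without flat culture 2 (0.12) and under quantile normalization (0.08). Leaving out a flat culture sets 2 libraries against 1, whose spread is then taken to be like that of the others, and no gene of the whole table was called in such a comparison. Against flat cultures 1 and 3 alone, 5 of the 9 genes were up-regulated in reaggregates, without *Egr2*, where 3.70% of all genes were and 6.17% were down-regulated.

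Genes of the same pathways were described from lists. Over all genes tested, 7.32% were up-regulated and 6.53% down-regulated, 12.5% and 8.99% without flat culture 3, and 1.84% and 2.53% with the consecutive reaggregates averaged. Of the 28 immediate early genes of other families, 7 were up-regulated and 3 down-regulated, with a median log2 fold change of 0.66 against 0.04 over all genes tested, and without flat culture 3 there were 11 and 3. With the consecutive reaggregates averaged there were 2 and 2, *Atf3* and *Zfp36l1* higher and *Fosl1* and *Sgk1* lower. The AP-1 genes *Fosb* and *Fos*, the stress-induced *Atf3* and the mRNA decay factor *Zfp36l1* had log2 fold changes of 4.19, 2.53, 4.08 and 2.85, and of 5.41, 3.49, 4.99 and 3.41 without flat culture 3. The down-regulated genes were *Fosl1* (−1.75), also of the AP-1 family, *Cyr61* (−1.51), of which the product is a matricellular protein, and the kinase gene *Sgk1* (−1.24). *Fosb*, *Fos* and *Cyr61* lost their calls with the consecutive reaggregates averaged (adjusted p = 0.0839, 0.151 and 0.0696 with limma). Averaging pairs of equal size leaves every log2 fold change as it was by arithmetic, so the medians of this list and of each list below could not change. As with *Egr1*, flat culture 3 exceeded every reaggregate for *Fos*, at 436 RPM, while *Fos* was between 294 and 369 RPM in reaggregates and at 19.1, 79.8 and 16.9 RPM in flat cultures 1, 2 and 4. Of 15 upstream transcription factors and coactivators in the table, 5 were up-regulated and none down-regulated (median 0.68), among them the CREB coactivator *Crtc3* (1.17), the serum response factor partner *Elk4* (1.11), and *Mef2d* (1.08) and *Mef2a* (1.06), and none was called with the consecutive reaggregates averaged. Of 14 tested MAPK phosphatases and Sprouty/Spred inhibitors, which damp the kinase pathway upstream of EGR genes, none was up-regulated and 2 were down-regulated, *Dusp6* (−1.78) and *Spry4* (−1.68), with a median of −0.25, and neither was called with the consecutive reaggregates averaged. Without flat culture 3, *Spry1* was called higher (1.57) and the median was −0.06.

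Among 12 tested textbook targets of EGR1, 1 was up-regulated, a share near the 7.32% over all genes, namely the tissue factor gene *F3* with a log2 fold change of 2.41. The median over the list was 0.14. The retinoid X receptor gene *Rxra*, whose product pairs with NR4A1 and NR4A2, had a log2 fold change of 1.01 and was up-regulated, as 1 of 2 tested, but was not called with the consecutive reaggregates averaged. None of the 12 NuRD genes was called (median 0.16), the most abundant being *Chd4* with a log2 fold change of 0.33, and without flat culture 3 *Mta1* was called higher (1.06). Of 11 heat shock genes, 4 were up-regulated and none down-regulated (median −0.13), namely *Hspb1* (3.06), *Hspa1b* (2.33), *Hspa1a* (2.22) and *Dnaja1* (1.03). Of these, *Hspa1a* and *Hspa1b* are near-identical copies whose reads may be split. All 4 were lower in flat cultures 2 and 4 than in flat cultures 1 and 3. *Hspb1* was at 30.5, 1.25, 51.4 and 1.11 RPM in flat cultures 1 to 4. In reaggregates it was between 39.1 and 125 RPM, so the groups overlapped. The summed level of the 11 genes was lower in every reaggregate, between 4172 and 4681 RPM, than in any flat culture, between 4783 and 6040 RPM. The 2 most abundant genes of this sum were *Hsp90ab1*, at a mean of 2615 RPM in reaggregates and 2880 RPM in flat cultures, and *Hspa8*, at 931 and 1199 RPM. Both overlapped between the groups and were not called. The 4 up-regulated genes added little to the sum, with *Hspb1* at a mean of 74.3 RPM in reaggregates and 21.1 RPM in flat cultures. *Hsp90aa1* (−0.68, adjusted p = 0.00181 with limma) and *Hspd1* (−0.85, adjusted p = 0.000894 with limma) were lower without overlap of the groups, by less than 2-fold. *Dnaja1* was higher without overlap, between 152 and 212 RPM in reaggregates and at 130, 54.1, 132 and 54.9 RPM in flat cultures 1 to 4. Over all genes 7.80% were higher without overlap, and the share that was lower without overlap was not counted. Without flat culture 3, *Hspb1* was at 3.94 and *Hspe1* was called lower, with −1.19, and with the consecutive reaggregates averaged none of the 11 was called. Whether stress on handling has a part in the *Egr* and *Nr4a* values was not tested.

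The genes whose values followed those of each member most closely were taken by Pearson's r over the 10 libraries, among 11661 genes, as a description in which the libraries share culture form. *Egr3* and *Nr4a1* were each other's closest gene, with r = 0.98. *Egr1*, with its high value in flat culture 3, was closest to the kinase gene *Plk3* (0.95) and the mitochondrial genes *mt-Cytb* (0.90) and *mt-Nd4* (0.89), and *Egr2* to *Acadvl* (0.97), *Chd9* (0.95) and *Nr4a1* (0.95). *Egr3* was followed by *Gm4976* (0.98) and *Spata13* (0.98), and *Nr4a1* by *Chd9* (0.98) and *Pkd1* (0.97). *Nr4a2* was closest to *Pfkfb3* (0.99), *Gab2* (0.98) and *Cntd1* (0.98), and *Nr4a3* to *AC102618.2* (0.99), *AC122037.2* (0.98) and *Rin2* (0.98). *Nab2* was closest to *Dcaf6* (0.99), *Zfp354c* (0.99) and *Tcp11l2* (0.99), and *Nab1* to *AC154214.1* (0.97), *2610039C10Rik* (0.97) and *Dek* (0.96).

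Windows of 250 bases before a RefSeq gene start (GRCm38.p6) were available for 7 of the 9 genes, not for *Egr1* and *Egr3*, and were searched on both strands. Not all of them lie upstream of the gene as annotated in NCBI37/mm9. The *Nab2* window lies within the annotated gene and has no base before an annotated exon, the *Nab1* window has 19 such bases, and 4 of the 5 *Egr2* windows lie within the annotated gene. TGACG, the core of the cyclic AMP response element, was in 17.8% of all 32851 promoter windows, and 4 or more copies were in 0.137%. Each of the *Nr4a1*, *Nr4a2* and *Nr4a3* windows held 4 copies, that of *Egr4* 2, those of *Egr2* 2 in 3 of its 5 windows, that of *Nab1* 1 and that of *Nab2* none. The full element TGACGTCA, which contains TGACG and is in 1.55% of windows, was in none of them. The CArG box, the motif bound by serum response factor, was in 1.47% of all windows and in 4 of the 5 windows of *Egr2*. Of these, 3 overlap and share the same box and the same 2 copies of TGACG, so that 2 distinct boxes are present. GCGNGGGCG, the EGR motif, was in 4.70% of all windows, with 3 copies in *Nab1* and 1 each in *Nr4a1* and *Nr4a2*, and AAAGGTCA, the NR4A motif, in 1.34% of all windows and in none of these. A match is a description of letters and not of binding.

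The NR4A windows are printed because they share the TGACG core, and 1 *Egr2* window because it holds the CArG box. Whether either motif has a part in the values of these genes was not tested. Each window was placed in NCBI37/mm9 by exact match and is printed 5′ to 3′ on the strand of the gene without any annotated exon base. The *Egr2* window lies within the annotated gene, downstream of its first annotated exon, before another RefSeq start. Capitals mark TGACG on either strand in the NR4A genes and the CArG box in *Egr2*. The positions are chr15:101097027-101097276 on the plus strand for *Nr4a1*, chr2:56976415-56976664 on the minus strand for *Nr4a2*, chr4:48057927-48058024 on the plus strand for *Nr4a3*, where the 98 bases before the annotated exon hold 3 of the 4 copies, and chr10:67000064-67000313 on the plus strand for *Egr2*.
Nr4a1: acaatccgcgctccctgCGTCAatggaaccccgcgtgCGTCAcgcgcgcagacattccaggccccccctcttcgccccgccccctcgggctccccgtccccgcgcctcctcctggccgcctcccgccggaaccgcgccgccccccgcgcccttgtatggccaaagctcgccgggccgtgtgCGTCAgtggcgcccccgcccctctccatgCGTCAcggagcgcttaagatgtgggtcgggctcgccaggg
Nr4a2: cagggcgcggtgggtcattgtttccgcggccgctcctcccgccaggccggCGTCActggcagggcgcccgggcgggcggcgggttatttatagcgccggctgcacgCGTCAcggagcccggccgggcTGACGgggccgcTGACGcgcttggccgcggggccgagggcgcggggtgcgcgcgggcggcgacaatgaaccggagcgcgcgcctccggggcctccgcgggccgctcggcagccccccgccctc
Nr4a3: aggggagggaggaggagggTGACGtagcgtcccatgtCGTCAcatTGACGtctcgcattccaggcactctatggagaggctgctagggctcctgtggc
Egr2: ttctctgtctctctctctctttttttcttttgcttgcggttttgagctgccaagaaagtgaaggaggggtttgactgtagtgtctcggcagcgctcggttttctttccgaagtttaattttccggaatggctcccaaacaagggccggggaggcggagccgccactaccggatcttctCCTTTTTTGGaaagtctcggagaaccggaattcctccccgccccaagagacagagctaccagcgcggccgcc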

How the data were processed

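The authors sequenced unstranded TruSeq libraries of OP9 cells as 50-base single-end reads and, per the labels and the Methods, aligned them with TopHat 1.2.0 to NCBIM37 (mm9). Reads were summed over Ensembl genes, with reads mapping to several places divided among genes, and the authors deposited the result as RPM for each library. A log2 fold change of reaggregates over flat cultures, from a DESeq comparison by the authors, stands in the same table. The adjusted p-value of that comparison was deposited beside it, and neither column was used here.

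The most frequent RPM above 0 in a library was taken as 1 read and gave its depth. Between 70.6% and 72.6% of values above 0 and below 1 RPM lay within 0.1 of a whole read, so no count test was run. The 9 genes and the lists were chosen with earlier results of these data known. The labels gave groups, replicate numbers and IL-3. log2(RPM + 0.5) was fitted with limma 3.58.1 in R 4.3.3 (empirical Bayes with a mean-variance trend), without covariates, for genes that exceeded 0.5 RPM in 1 library or more, and the procedure was tested on simulated data. Each gene was also tested by an exact two-sided permutation over all 210 splits into 6 and 4 libraries and, chosen after seeing the data, over the 35 splits that remain with consecutive reaggregates averaged. Alternatives were the pseudocount, filter, scaling, variance trend, replicate block, averaged or blocked consecutive reaggregates, subsets by cell source or IL-3, and leaving out each library, 41 settings in all. Named genes are the 9 members, up to 4 called genes per list with the largest fold change where either group mean reached 5 RPM, or else the most abundant gene, and the 3 genes most alike among those whose mean reached 5 RPM. Other genes, such as *Gm16229*, *Stat6*, *Tmem194*, *Col1a1*, *Fosl1*, *Cyr61*, *Sgk1*, *Spry1*, *Mta1*, *Hsp90aa1*, *Hspd1* and *Hspe1*, were named after their values were seen. Coordinates and transcript lengths came from an annotation of NCBI37/mm9 in a later Ensembl release than that of the authors. Python 3.11.15 with numpy 2.4.6, scipy 1.17.1 and matplotlib 3.10.9 was used for the remaining steps.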

Additional observations from a re-analysis of the deposited data

Results flagged for a closer look

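In 31 groups of values (each gene and each summed list other than the cell type markers, within reaggregates and within flat cultures), 3 held a library far from the others of its group, where chance gives about 1.55. Flat culture 3 was at 77.2 RPM for *Nab2*, above the next highest flat culture at 55.4 RPM. Reaggregate 1 was at 60.4 RPM for *Nr4a3*, above the next highest reaggregate at 35.3 RPM. Flat culture 1 had the lowest summed level of MAPK phosphatases and Sprouty/Spred inhibitors, at 485 RPM, against 844 RPM in the next lowest flat culture. The causes were not tested.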

How the results depend on the processing

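Between reaggregates and flat cultures, 198 of 205 values of single members kept their direction and their call, 4 lost the call, 3 gained it and none changed direction. Settings that change only the filter, the variance trend or the averaging of pairs leave each log2 fold change as it was. In those settings the direction could not change. The 1239 genes called higher and 1106 called lower became 312 and 429 with consecutive reaggregates averaged, 345 and 474 with reaggregates without IL-3 only, 277 and 360 with reaggregates with IL-3 only, and 2579 and 1775 against flat cultures 2 and 4 only, where the median of all genes moved to 0.13 and 1 member, *Egr4*, was called lower. Against flat cultures 1 and 3 only, 627 genes were higher and 1044 lower. Leaving out single libraries gave between 766 (without flat culture 4) and 2121 (without flat culture 3) genes called higher. The replicate block of numbers 1 to 4 gave 1884 higher genes and the same 6 members, but correlations of deviations between same-numbered libraries were −0.04, −0.21, 0.07 and 0.15, so the numbers do not pair the libraries. With IL-3, no gene was called under any alternative; with single libraries left out, differences of both signs were found for *Egr1* (−0.25 to 0.12), *Nab2* (−0.29 to 0.20) and *Nr4a3* (−0.49 to 0.22). Between cell sources, 309 genes were higher and 656 lower, 508 and 635 under quantile normalization, 70 and 134 without the filter, and 0 when any flat culture was left out. There *Egr4* was called under quantile normalization (1.42), 1 member, which passed the filter through flat culture 2 alone, and signs changed for *Egr3* under quantile normalization (0.078) and, with a flat culture left out, for *Egr1* (−2.002 to 0.91), *Egr2* (−1.80 to 0.015), *Egr3* (−1.26 to 0.82), *Nr4a1* (−2.73 to 1.14) and *Nr4a2* (−0.36 to 0.82). The cause was not tested. Few reads stand behind *Egr4* and the flat values of *Nr4a3*. An exact permutation with consecutive reaggregates averaged, chosen after seeing the data, gave 0.0571 in place of 0.00952 for *Egr2* and of 0.00476 for *Nr4a1*.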

Other observations

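Reaggregates 5 and 6 had the lowest *Nab2*, at 115 and 103 RPM, and the lowest *Nr4a2*, at 23.6 and 21.8 RPM. They also had the highest *Egr1*, at 802 and 666 RPM, and the highest *Egr2*, at 56.8 and 48.9 RPM. The log2 ratio of *Egr1* to *Nab2* RPM was therefore 2.80 and 2.69 in these libraries and between 1.37 and 1.74 in reaggregates 1 to 4, while flat cultures ranged from 1.29 to 3.73. These differences within the reaggregates were not tested.

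The values are steady-state RNA at a single time, and they hold no measure of protein or of transcription rate. The independence of the reaggregates was not established, and culture form, dissociation and cell source cannot be separated in this design.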
